A study of Danio rerio with 19 samples.

Results

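The her genes described here are zebrafish hairy and Enhancer-of-split related genes, chosen as 10 names: her4.1, her4.2, her4.3, her4.4, her15.1, her15.2, her2, her12, her6 and her9. A name was matched exactly, ignoring case, to the symbol of a gene ID. Of the 10 names, 8 matched 1 ID each among the 32020 IDs of the count tables, and her6 and her9 matched none. The IDs are ENSDARG00000056732 (her4.1), ENSDARG00000094426 (her4.2), ENSDARG00000070770 (her4.3), ENSDARG00000009822 (her4.4), ENSDARG00000054562 (her15.1), ENSDARG00000054560 (her15.2), ENSDARG00000038205 (her2) and ENSDARG00000032963 (her12). The names were chosen by a rule that used expression values of these same libraries, so their levels and differences are given as a description, and nothing is read from whether they passed a test.

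Bulk RNA-seq libraries had been made from single larval heads without eyes, and their labels give the tissue as whole brain. In the scn1lab line, larvae came from crosses of scn1labΔ44/+ fish, which have a small deletion in scn1lab, a gene for a voltage-gated sodium channel. In the dyrk1a line, they came from crosses of dyrk1aaΔ77/+:dyrk1abΔ8/+ fish, which carry deletions in the 2 zebrafish copies of a dual-specificity protein kinase gene. Each line has larvae that are wild type (WT), heterozygous (HET) or homozygous for the deletions (HOM), with 3 libraries per group except the 4 of dyrk1a HOM. The larvae were siblings or cousins, 1 head gave 1 library, no treatment is labelled, and larval age is not given in the sources used here. The labels do not say how the genotypes of the paired dyrk1a genes combine in a HET larva. Libraries are named by line, genotype and the replicate number of the label, so that dyrk1a HOM has the numbers 1, 2, 3 and 5.

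Notch is a receptor that is cut when a Delta or Jagged ligand on a neighbouring cell binds it, and its freed intracellular part joins the DNA-binding protein Rbpj to switch on genes of the her and hes family. The proteins of this family are basic helix-loop-helix repressors that hold back proneural genes such as neurog1, and in the vertebrate brain they keep progenitors and radial glia from becoming neurons. The her4, her15, her2 and her12 genes are related to mammalian Hes5. In a bulk library, fewer cells that express a her gene and less of its RNA per cell cannot be told apart.

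The 8 her genes lie in 2 groups of neighbours. In the RefSeq annotation, whose build differs from that of the count tables and which was used only for gene order, her2, her15.1 and her15.2 follow each other with no other coding gene between them. The other group runs her12, her4.2, her4.1, her4.3, her4.4 and her4.5, again with no other coding gene between them, and the span of her4.2 overlaps that of her4.1. The her4 copies and the her15 copies are close relatives. How the authors' counting divided reads that fit several copies is not given in the sources used here, so the value of any single copy is uncertain and summed values stand beside it.

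The libraries held 15103997 to 29875412 counts. The deletions are small, and the RNA of the targeted genes does not check the genotype labels: scn1lab ranged from 5.75 to 14.7 CPM (counts scaled to a common library size) in scn1lab HOM and from 13.9 to 16.6 CPM in WT, and the more highly counted of the 2 IDs named DYRK1A ranged from 43.4 to 65.2 CPM in dyrk1a HOM and from 38.2 to 42.1 CPM in WT. The other DYRK1A ID ranged from 7.68 to 26.8 CPM in dyrk1a HOM and from 9.61 to 19.2 CPM in WT, so its groups overlapped. Libraries differed in RNA of other tissues. The 20 IDs of a list of digestive organ genes made up 9.69% and 13.4% of all counts in HOM1 and HOM3 of scn1lab, 7.61% in scn1lab HET2 and 4.62% in dyrk1a HET4, and at most 0.955% in the other 15 libraries; the number of these IDs at 0 counts was at most 1 in the 4 high libraries and up to 11 elsewhere. The summed share of 18 neuronal marker IDs was 0.152 to 0.324% in scn1lab HOM, 0.138 to 0.338% in HET and 0.549 to 0.694% in WT, and it was 0.723 to 1.06%, 0.761 to 0.892% and 0.99 to 0.998% in dyrk1a HOM, HET and WT. That of 14 skin IDs was 1.85 to 6.91% over the 6 groups, so the libraries were not pure brain. The part of these differences in the her values was not tested. Values without the libraries of high digestive share are given below for scn1lab HOM, where HOM2 is the only HOM library left, and for the line difference. Without them, the 8 her genes ran from -3.07 to 0.77 on the log2 scale in dyrk1a HET against WT. With all libraries they ran from -3.63 to 0.68.

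Summed over the 8 genes, her RNA was found in every library, and the ranges of the 6 groups overlapped. In scn1lab the sum was 233 ± 37.2 CPM in WT and 244 ± 37.9 in HET (mean ± SD, n = 3 each), and the 3 HOM libraries ran from 138 to 292 CPM around a mean of 214. In dyrk1a it was 293 ± 60.7 CPM in WT, 288 ± 36.1 in HET (n = 3 each) and 335 ± 89.4 in HOM (n = 4). Ordered from high to low, the groups were dyrk1a HOM, WT and HET, then scn1lab HET, WT and HOM, and each neighbouring pair in that order overlapped in range. The order depends on the scaling: with library totals the means were 333, 306 and 275 CPM in dyrk1a HOM, WT and HET and 293, 212 and 207 CPM in scn1lab WT, HET and HOM, so that scn1lab WT lay above dyrk1a HET and scn1lab HET. These CPM use library sizes scaled by the trimmed mean of M-values (TMM) separately in each line, so levels set across the lines are approximate.

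**Figure D1:**
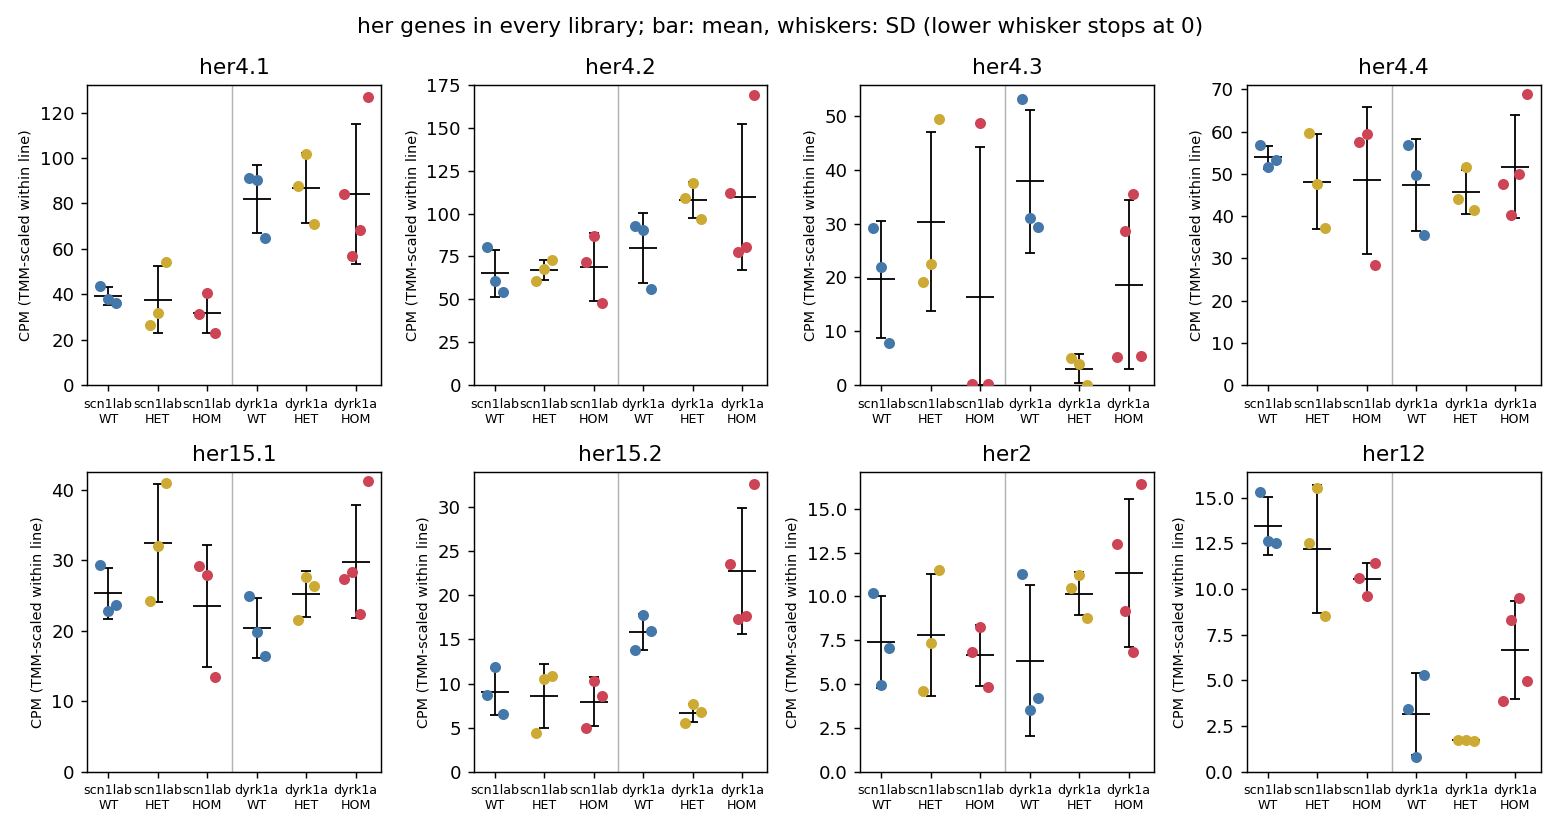
Level of each of the 8 her genes in CPM (y axis, starting at 0) in each library, by line and genotype (x axis); points are libraries, bars are group means and whiskers SD, with the lower whisker stopped at 0. The her4.3 panel spreads from 0 to 53.1 CPM, and in the her12 panel the scn1lab libraries lie between 8.53 and 15.5 CPM.

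Of all genes tested, few passed an adjusted p under 0.05 (edgeR quasi-likelihood F test, Benjamini-Hochberg over all genes tested), and 0 of the 8 her genes were among them. Nothing is read from the count of her genes called by either tool, since the choice of the genes used the same values. In scn1lab, 0.00466% of 21466 genes passed for HOM against WT and for HOM against HET, and 0% for HET against WT. In dyrk1a, 0% of 21025 genes passed in each of the 3 comparisons. For the contrast of the HOM effects, dyrk1a less scn1lab, 0.0267% of 22488 genes passed (0.0222% higher, 0.00445% lower). At an unadjusted p under 0.05, 4057, 2833 and 915 genes were found in scn1lab HOM against WT, HET against WT and HOM against HET, 1640, 700 and 1389 in dyrk1a, and 2428 for the difference, which are 18.9%, 13.2% and 4.26%, 7.80%, 3.33% and 6.61%, and 10.8% of the genes tested. DESeq2 called 1530, 298 and 64 genes in scn1lab (7.47%, 1.39% and 0.284%), 158, 32 and 155 in dyrk1a (0.709%, 0.140% and 0.712%) and 279 for the contrast (1.31%). Its calls held 1 of the 8 her genes, her15.2, in dyrk1a HET against WT and in HOM against HET, and 0 in the other 5 comparisons.

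The her4 genes are well-known Notch-driven genes of zebrafish neural progenitors and radial glia. The sum of her4.1, her4.2, her4.3 and her4.4 ran from 151 to 210.4 CPM in scn1lab WT, from 166 to 214 CPM in HET and from 99.3 to 236 CPM in HOM. In dyrk1a the WT libraries averaged 247 ± 55.8 CPM, the HET libraries 244 ± 33.8 and the HOM libraries 264 ± 73.2. Counted as 1 gene, the her4 copies differed from WT by -0.11 on the log2 scale in scn1lab HOM, 0.04 in scn1lab HET, 0.08 in dyrk1a HOM and -0.03 in dyrk1a HET.

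Within that sum, many counts were assigned to her4.3 in some heads and few or none in others. Whether its expression differed between these heads was not tested. The her4.3 counts were 3, 1153 and 4 in scn1lab HOM1, HOM2 and HOM3, 523, 410 and 621 in the HET libraries, and 824, 671 and 263 in the WT libraries. In dyrk1a they were 105, 535, 842 and 79 in HOM1, HOM2, HOM3 and HOM5, 122, 108 and 0 in the HET libraries, and 1055, 724 and 731 in the WT libraries. As a share of the her4.1 to her4.4 counts, her4.3 was under 3% in 7 of the 19 libraries, 5.12% in scn1lab WT3 and between 11.5% and 23.1% in the other 11.

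The 7 low libraries were 2 of 3 scn1lab HOM, 2 of 4 dyrk1a HOM and all 3 dyrk1a HET. No WT library of either line was among them, and the lowest WT share was 5.12% in scn1lab WT3. No scn1lab HET library was low. The 3% limit was not fixed in advance. The part of genotype in the low shares was not tested. The her4.3 share was 0.116% (95% Wilson interval 0.0395 to 0.341%) in scn1lab HOM1 and 0.232% (0.0902 to 0.594%) in HOM3. In HOM2 it was 20.6% (19.6 to 21.7%). In dyrk1a HET it was 2.06%, 1.44% and 0 of 3516 counts, for which 3 counts would be a share of 0.0853% and the Wilson upper limit is 0.109%. The dyrk1a WT libraries had 18.1%, 11.9% and 15.8%, and of the dyrk1a HOM libraries HOM1 and HOM5 had 2.11% and 1.44% and the others at least 14.1%. These intervals and the limit cover counting error only. In fitted terms her4.3 differed by -3.63 on the log2 scale (SE 1.26) in dyrk1a HET against WT, and by -0.26 (SE 1.62) in scn1lab HOM against WT. The scn1lab value turns on 1 head: it was -6.67 without HOM2. It was 1.31 without the libraries of high digestive share, where HOM2 is the only HOM library left and is assumed to vary like the other groups.

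**Figure D2:**
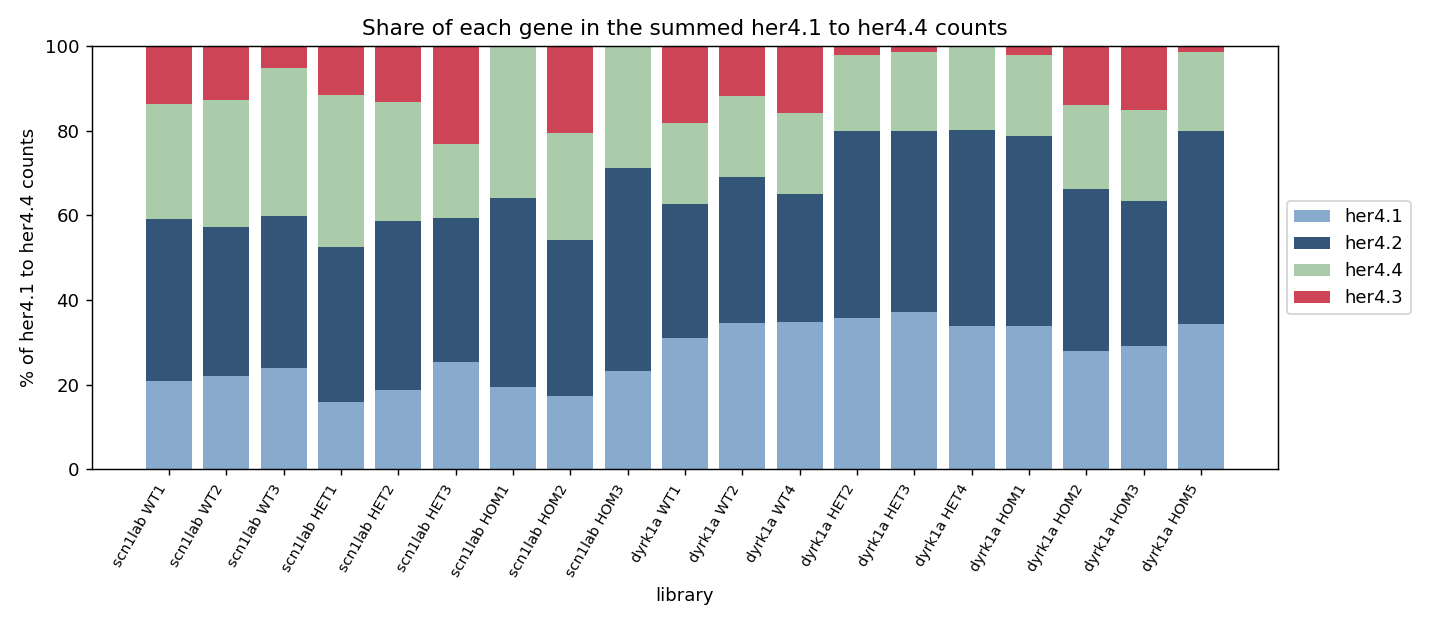
Percentage of the summed her4.1 to her4.4 counts (y axis, 0 to 100%) taken by each gene in every library (x axis); bars stack the 4 genes, with her4.3 on top. The her4.3 segment is at most 2.11% in 7 libraries and at least 11.5% in 11, with scn1lab WT3 between at 5.12%.

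The libraries with little her4.3 had larger shares of her4.2. In dyrk1a, her4.2 took 42.9% to 46.3% of the her4 counts in the 5 libraries low in her4.3 and 30.2% to 38.2% in the other 5. In scn1lab it took 44.7% and 47.9% in the 2 low libraries and 34.1% to 39.9% in the other 7. A larger share of the other copies is built into a share when 1 copy is low. In CPM, her4.2 was 109, 118 and 96.9 in dyrk1a HET2, HET3 and HET4 and 93.0, 90.7 and 56.1 in the WT libraries, so the groups did not overlap, with a log2 difference of 0.44 (SE 0.30). In scn1lab the her4.2 ranges of HOM and WT overlapped, at 47.6 to 86.8 CPM against 54.1 to 80.7 CPM, with HOM3 below and HOM2 above all WT libraries.

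The 2 scn1lab HOM heads with almost no her4.3 are those with digestive shares of 9.69% and 13.4%, and dyrk1a HET4, with 0 counts, had 4.62%. The 4th library of high digestive share, scn1lab HET2 at 7.61%, had 410 her4.3 counts. The 4 dyrk1a libraries with 79 to 122 counts had digestive shares of 0.00614 to 0.0853%.

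The remaining her4 copies varied less. For her4.1, the group means ran from 31.7 to 39.3 CPM in scn1lab and from 82.0 to 86.9 CPM in dyrk1a, with fitted differences from WT between -0.31 (SE 0.32) and 0.08 (SE 0.28). For her4.4 they ran from 48.1 to 53.9 CPM and from 45.7 to 51.7 CPM. The neighbouring her4.5 is not one of the 10 names and was tested: its log2 change was -0.13 (SE 0.28) in scn1lab HOM against WT and 0.30 (SE 0.15) in dyrk1a HOM against WT, with edgeR adjusted p of 0.843 and 0.683.

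The her15 copies are Notch targets like her4, and in dyrk1a HET her15.2 was low while her15.1 was not. For her15.2, the dyrk1a WT libraries had 13.8, 17.8 and 15.9 CPM, the HET libraries 5.57, 7.68 and 6.78 CPM, and the HOM libraries 23.6, 17.3, 17.6 and 32.6 CPM. Every HET library lay below every WT and HOM library, while HOM and WT overlapped. The fitted log2 difference was -1.25 (SE 0.28) for HET against WT, 1.77 (SE 0.27) for HOM against HET and 0.52 (SE 0.26) for HOM against WT. For her15.1 the dyrk1a WT libraries had 24.9, 19.8 and 16.5 CPM, the HET libraries 21.6, 27.7 and 26.4 CPM, and the HOM libraries 27.3, 28.4, 22.4 and 41.2 CPM. All groups overlapped, with log2 differences from WT of 0.55 (SE 0.23) in HOM and 0.31 (SE 0.25) in HET.

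Summed, the pair gave 52.6 ± 14.8 CPM in dyrk1a HOM, 31.9 ± 4.22 in HET and 36.3 ± 3.31 in WT. The HOM libraries, at 40.0 to 73.8 CPM, lay above the WT libraries at 32.5 to 38.7 CPM and the HET libraries at 27.2 to 35.4 CPM, and the last groups overlapped. Of all single genes, 4.05% were higher without overlap in dyrk1a HOM than in WT and 4.07% than in HET. Nothing is read from the separation of the sum. Counted as 1 gene, the pair differed by -0.19 on the log2 scale for HET against WT, against -1.25 for her15.2 alone, and by 0.72 for HOM against HET and 0.52 for HOM against WT. In scn1lab the sum was 34.4 ± 3.88 CPM in WT, 41.1 ± 11.7 CPM in HET and 31.5 ± 8.37 CPM in HOM. The scn1lab her15.2 libraries ran from 4.43 to 11.9 CPM without separation of the genotypes.

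For her2, the gene beside her15.1, scn1lab libraries had 4.58 to 11.5 CPM over all genotypes. In dyrk1a the WT libraries had 11.3, 3.52 and 4.21 CPM, the HET libraries 10.5, 11.2 and 8.80 CPM, and the HOM libraries 13.0, 9.17, 6.81 and 16.4 CPM. WT1 stood with the mutants and the other WT libraries below them, so the groups overlapped. The log2 difference of HOM from WT was 0.84 (SE 0.43), and it was 1.55 without WT1 and 0.55 without WT2.

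For her12, the scn1lab WT libraries had 15.3, 12.6 and 12.5 CPM, the HET libraries 12.5, 15.5 and 8.53 CPM, and the HOM libraries 10.6, 9.61 and 11.4 CPM. The HOM libraries lay below the WT libraries without overlap, by -0.35 on the log2 scale (SE 0.29). Of all genes, 18.2% were lower without overlap there. With library totals in place of TMM the her12 value was -0.82, while the median of all genes went from 0.09 to -0.37. In dyrk1a the WT libraries had 3.42, 0.816 and 5.29 CPM, the HET libraries 1.74, 1.76 and 1.66 CPM, and the HOM libraries 3.89, 8.31, 9.51 and 4.98 CPM. All HOM libraries exceeded all HET libraries, with a log2 difference of 1.95 (SE 0.58), and the WT libraries spread over both. HOM2 and HOM3, the dyrk1a HOM libraries with more her12, were also those with more her4.3. In scn1lab the reverse was seen: HOM2 had the most her4.3 and the least her12 of the HOM libraries. Over all libraries, her4.3 and her12 had a Pearson r of 0.14 centred on the group mean and 0.28 centred on the line mean.

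Counting genes whose groups did not overlap, 1 her gene was lower in scn1lab HOM than WT (her12), where 18.2% of all genes were. None of the 8 was separated in scn1lab HET against WT, where 9.86% of all genes were higher and 10.9% lower, or in scn1lab HOM against HET (4.98% and 2.92%). None was in dyrk1a HOM against WT (4.05% and 3.65%). In dyrk1a HET against WT, her15.2 and her4.3 were lower (5.95% of all genes) and her4.2 was higher (6.17%). In dyrk1a HOM against HET, her15.2, her4.3 and her12 were higher (4.07%) and none was lower (2.89%). With library totals in place of TMM, her4.1 and her12 were lower in scn1lab HOM than WT, where 30.2% of all genes were lower and 5.15% higher. In scn1lab HET her4.1, her4.2, her4.4 and her12 were lower than in WT (30.5% lower, 2.32% higher), and none was separated in scn1lab HOM against HET (1.77% lower, 4.33% higher) or dyrk1a HOM against WT (3.60% lower, 3.77% higher). In dyrk1a HET her15.2 and her4.3 were lower than in WT (11.6% lower, 3.02% higher), and in HOM her15.2 and her12 were higher than in HET (1.61% lower, 5.93% higher). These comparisons share libraries, and since the genes were chosen with the values known, nothing is read from the counts.

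**Figure D3:**
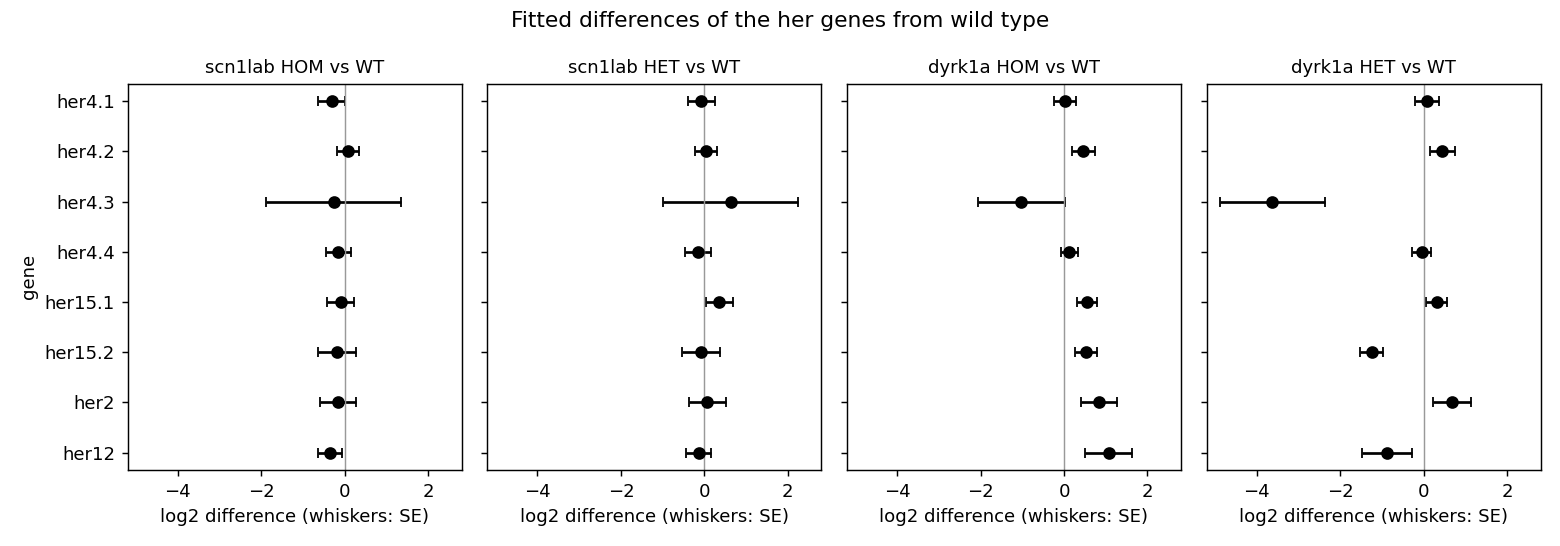
Fitted log2 difference (x axis, whiskers SE) of each her gene (y axis) from WT, in scn1lab HOM and HET and dyrk1a HOM and HET; HOM and HET share their WT libraries. The lowest points are her4.3 at -3.63 and her15.2 at -1.25, both in dyrk1a HET.

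The median log2 difference of the 8 genes was -0.17 in scn1lab HOM against WT, where the median of all genes was 0.09. It was -0.01 against 0.06 in scn1lab HET, 0.49 against 0.01 in dyrk1a HOM, and 0.02 against 0.01 in dyrk1a HET. In scn1lab HOM, 7 of the 8 fitted values were below 0. With library totals in place of TMM all 8 were below 0, at -0.31 to -0.82, and the median of all genes was -0.37. The direction depended on which heads were used: 3 of the 8 were below 0 without HOM3, 5 without HOM1, 5 without WT1 and 4 with the digestive share as a covariate, while all 8 were below 0 without HOM2, without WT2 and without WT3. Without the 3 scn1lab libraries of high digestive share (HOM1, HOM3 and HET2), which leaves 1 HOM head, 7 of the 8 were above 0, from 0.05 for her4.1 to 1.31 for her4.3, and her12 was at -0.49. In dyrk1a HOM, 7 of the 8 were above 0, and her4.3 was at -1.02. With library totals 6 were above 0, and 5 without HOM5, without WT4 or with the replicate number as a block. The her4 copies and the her15 copies may share reads, so the 8 values are not independent. Nothing is read from their signs or medians.

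**Figure D4:**
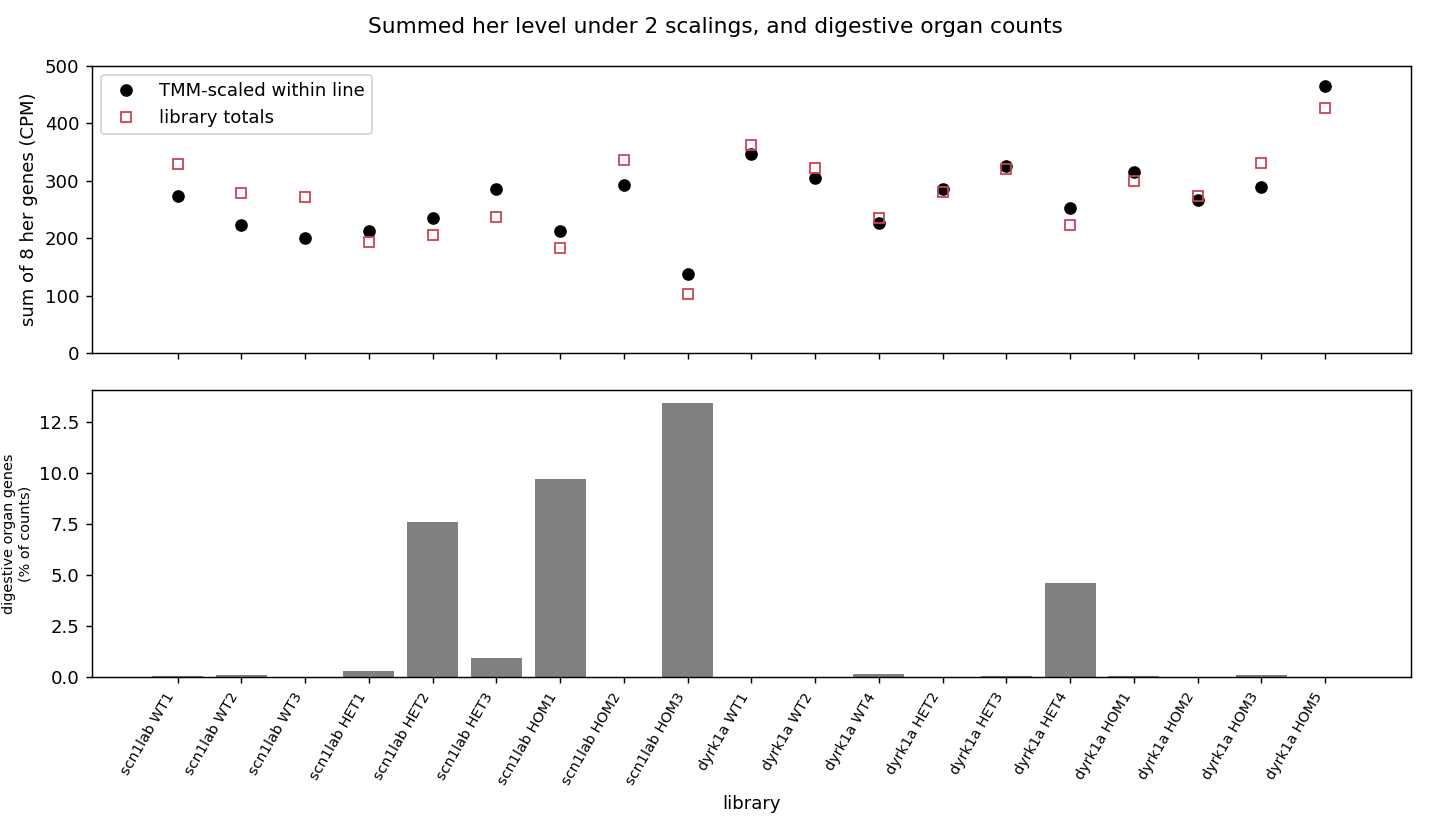
Upper panel: summed level of the 8 her genes (y axis, CPM) in every library (x axis) with TMM scaling within a line (filled circles) and with library totals (open squares). Lower panel: percentage of counts in 20 digestive organ IDs in the same libraries. With library totals the scn1lab WT libraries lie at 271 to 329.7 CPM, above the HET libraries and above 2 of the 3 HOM libraries.

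The HOM effect in dyrk1a less that in scn1lab had a median of 0.50 over the 8 genes beside -0.04 over all genes. It was 1.42 (SE 0.65) for her12, 0.99 (SE 0.63) for her2, 0.70 (SE 0.50) for her15.2 and 0.64 (SE 0.40) for her15.1. For the her4 copies it lay between -0.76 (SE 2.06, her4.3) and 0.37 (SE 0.40, her4.2). The her4.3 value turned on 1 head, at 5.64 without scn1lab HOM2, and was -2.31 without the libraries of high digestive share, where 3 of the 8 were below 0. With the replicate number as a block, 3 of the 8 were also below 0. Each of the lines has its own WT libraries, so the effects share no library.

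Between the lines themselves, her12 was lower in dyrk1a. With TMM over all 19 libraries, it ran from 9.45 to 17.3 CPM in scn1lab and from 0.752 to 8.81 CPM in dyrk1a, a separation seen in that direction for 1.73% of 22488 genes and in the other for 2.73%; with library totals the ranges overlapped. For her4.1 the ranges were 25.7 to 60.1 CPM in scn1lab and 51.6 to 114 CPM in dyrk1a, which overlapped, while with library totals they did not. The share of all genes separated between the lines with library totals was not counted, so nothing is read from that separation. The lines are separate crosses, and the headers of the scn1lab tables carry a suffix that the dyrk1a headers lack, so genetic background and handling cannot be told apart here.

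Across the 19 libraries, with each gene centred on its group mean, her15.1, her4.1, her4.2 and her2 had Pearson r of 0.69 to 0.87 over their 6 pairs. This set was not fixed in advance, and her4.4 had r of 0.33 to 0.73 with the same genes. The highest value, 0.87, was between her4.1 and her4.2, whose spans overlap. By contrast, her12 had r of -0.53 to 0.14 with the other 7 genes, below 0 for 6 of them. These r are descriptions over libraries that also share depth and tissue makeup. Centred on the line, the correlation of each gene with the mean of the others was highest for her15.1 (0.53) and her15.2 (0.52) and lowest for her12 (0.23). Such a mean is unweighted, so a gene that spread widely, such as her4.3, has more pull on it. In single pairs centred on the line, her15.2 had r of 0.43 with her4.3 and 0.44 with her12. With her15.1, her4.1, her4.2, her4.4 and her2 its r was 0.08 to 0.27. Among 20302 other genes, those most like the unweighted mean of the her genes were zgc:162858 (r = 0.82), NIBAN1 (0.81), nuf2 (0.81), si:zfos-1056e6.1 (0.80), atp1b3a (0.80) and wu:fi42h12 (0.78).

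The Notch pathway around the her genes was measured with 45 IDs in 5 lists: ligands, receptors, processing and modifiers, the transcription complex, and feedback with hey genes. None of them passed in any of the 7 comparisons in the main edgeR fits. These use all libraries of a line, or of both lines for the difference. At an unadjusted p under 0.05 there were 6, 7 and 1 in scn1lab HOM against WT, HET against WT and HOM against HET, 5, 3 and 3 in dyrk1a, and 3 for the difference. These are 13.3%, 15.6% and 2.22%, 11.4%, 6.82% and 6.82%, and 6.67% of those tested, beside 18.9%, 13.2% and 4.26%, 7.80%, 3.33% and 6.61%, and 10.8% of all genes. The median log2 change was 0.01 in scn1lab HOM and 0.09 in dyrk1a HOM against WT. DESeq2 called 1 of the 45 IDs, NUMB, in scn1lab HOM against WT, where it called 7.47% of all genes. Symbols in capitals are the form of the supplied gene name table.

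Among the Delta ligands in scn1lab HOM against WT, dlb was at -0.26 (SE 0.33), dlc at 0.48 (SE 0.27), DLD at 0.34 (SE 0.24) and dll4 at -0.43 (SE 0.29), with adjusted p of 0.715, 0.355, 0.47 and 0.445. In dyrk1a HOM against WT, dlb was at 0.70 (SE 0.33), dlc at 0.76 (SE 0.32), DLD at -0.01 (SE 0.15) and dll4 at -0.61 (SE 0.24), with adjusted p of 0.65, 0.616, 0.998 and 0.572. The Jagged ligands jag1a, jag1b, jag2a and jag2b were at -0.39, 0.20, -0.72 and -0.33 in scn1lab HOM and at 0.28, -0.16, -0.88 and 0.02 in dyrk1a HOM. None of these 8 ligands passed. The list of 10 ligand IDs also holds DLK2 and DNER, which did not pass by edgeR and were added after their values were seen. DLK2 ran from 0 to 0.858 CPM in dyrk1a HOM and from 2.26 to 5.01 CPM in WT. DNER ran from 0.622 to 2.02 CPM in scn1lab HOM and from 2.85 to 11.4 CPM in WT. In the other line, the HOM and WT ranges of each overlapped. Of all genes, 3.65% were lower without overlap in dyrk1a HOM against WT and 18.2% in scn1lab HOM against WT.

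Of the 4 receptor IDs, notch2 was at 60.1 CPM in scn1lab HOM and 32.7 CPM in WT, a log2 change of 0.88 (SE 0.26, edgeR adjusted p = 0.167) with no overlap between the groups. Of all genes, 18.3% were higher without overlap in that comparison. In dyrk1a HOM notch2 was at -0.04 (SE 0.17). The NOTCH1 ID ENSDARG00000103554 was at 47.5 CPM in dyrk1a HOM and 28.2 CPM in WT, a change of 0.75 (SE 0.21, edgeR adjusted p = 0.456), and at -0.01 (SE 0.32) in scn1lab HOM. The other NOTCH1 ID was at 0.17 and 0.23 and NOTCH3 at 0.25 and 0.42 in scn1lab and dyrk1a HOM. The 2 RBPJ IDs, for the DNA-binding partner of Notch, were at 0.32 and -0.29 in scn1lab HOM and at 0.28 and 0.10 in dyrk1a HOM. The line difference for notch2 was -0.93 (SE 0.30, edgeR adjusted p = 0.357).

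In the remaining Notch lists, NUMB, an inhibitor of Notch, was at 12.8 CPM in scn1lab HOM and 5.45 CPM in WT (log2 1.23, SE 0.31, edgeR adjusted p = 0.156) and at 0.69 (SE 0.30, adjusted p = 0.624) in dyrk1a HOM. DTX4, a Deltex ubiquitin ligase, was at -0.97 (SE 0.36) and PSEN2, a presenilin of the protease that cuts Notch, at 0.84 (SE 0.34) in scn1lab HOM, and MAML3, a coactivator, at -0.93 (SE 0.37). Of the feedback genes, the NRARP ID ENSDARG00000018958 was at 0.07 (SE 0.36) in scn1lab HOM and 0.50 (SE 0.38) in dyrk1a HOM, and the NRARP ID ENSDARG00000091419 at 0.45 (SE 0.48) and 0.27 (SE 0.65).

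**Figure D5:**
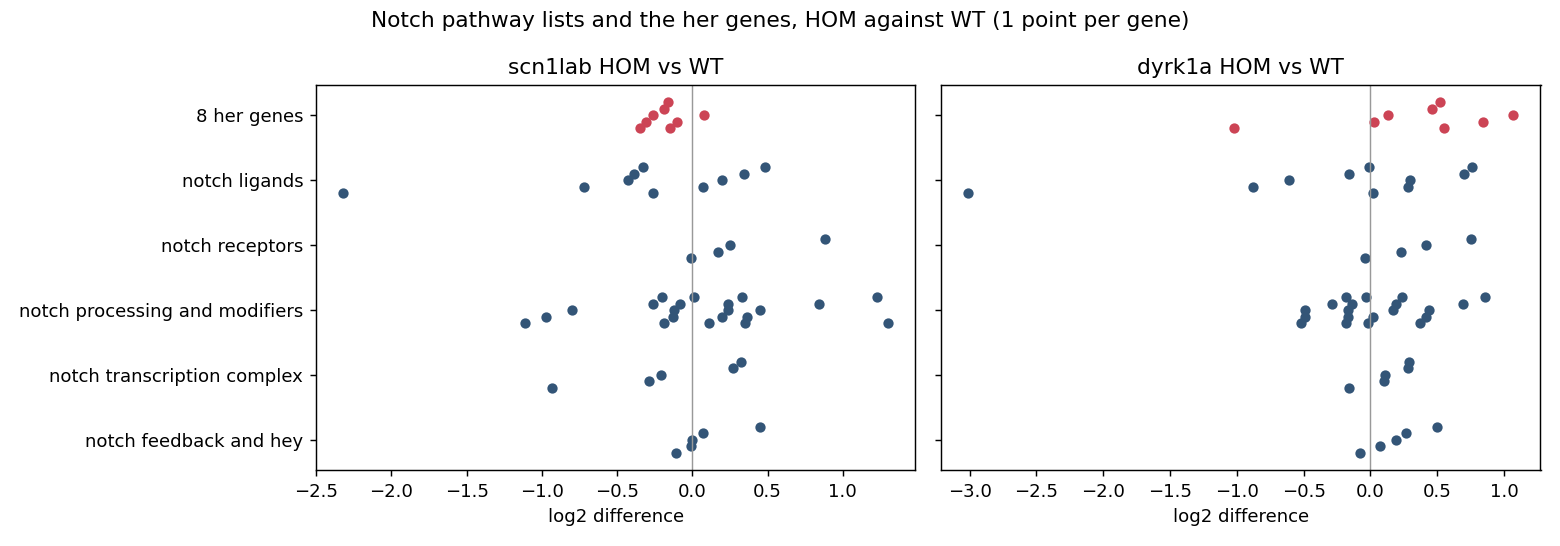
Log2 difference of HOM from WT (x axis) in scn1lab (left) and dyrk1a (right) for the 8 her genes and for each tested gene of the 5 Notch lists (rows, 1 point per gene; the small vertical offsets carry no value, and the x ranges differ). By edgeR none of the points is a gene with an adjusted p under 0.05, while DESeq2 called NUMB on the left; notch2 is the rightmost receptor at 0.88 on the left, and NOTCH1 at 0.75 on the right.

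Other her and hes genes were tested in the same fits. HES1 (ENSDARG00000006514) and HES4 (ENSDARG00000056438) carry human names in the supplied table and were not assigned to her6 or her9. HES1 ran from 8.57 to 21.5 CPM in scn1lab HOM and from 17.6 to 19.8 CPM in WT (log2 -0.33, SE 0.38, edgeR adjusted p = 0.678), and from 18.5 to 34.4 and from 17.9 to 22.6 CPM in dyrk1a HOM and WT (0.20, SE 0.24, adjusted p = 0.911). HES4 was at -0.43 (SE 0.26) in scn1lab HOM and 0.08 (SE 0.21) in dyrk1a HOM. Of the 11 other her and hes IDs, 7 were tested in each of the HOM against WT comparisons and 0 passed by edgeR. The smallest p belonged to her8a in scn1lab HOM (6.19 CPM against 12.4 CPM, adjusted p = 0.273) and to a HES6 ID, ENSDARG00000007097, in dyrk1a HOM (4.64 CPM against 1.99 CPM, adjusted p = 0.52).

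In the proneural list, 15 of 16 IDs were tested and none passed by edgeR. Not all genes of the list are known to be held back by her proteins. The median log2 change of the list was -0.91 in scn1lab HOM and 0.05 in dyrk1a HOM against WT. In scn1lab HOM, NEUROD1, a driver of neuronal differentiation, was at 49.0 CPM against 201 CPM (-2.04, SE 0.49, edgeR adjusted p = 0.156; DESeq2 called it), neurog1 at -1.66 (SE 0.64) and NEUROD4 at -2.13 (SE 0.87). In dyrk1a HOM, NEUROD1 was at -0.02 (SE 0.16), neurog1 at 0.36 (SE 0.32) and NEUROD4 at 0.23 (SE 0.35), with edgeR adjusted p of 0.994, 0.848 and 0.94. The neuronal marker list had a median of -1.31 in scn1lab HOM and -0.17 in dyrk1a HOM. RNA of photoreceptor and retina genes also differed, although the eyes had been removed, and the tissue it came from was not tested. The 16 photoreceptor and retina IDs were all below 0 in scn1lab HOM against WT (median -3.69). Their summed shares were 0.00705 to 0.063% in HOM, 0.031 to 0.291% in HET and 0.00754%, 0.748% and 0.625% in WT1, WT2 and WT3. With WT1 inside the HOM range, 0 of these 16 IDs were lower in HOM without overlap. Of the 15 proneural IDs tested, 8 were lower without overlap, beside 18.2% of all genes. NEUROD1 and NEUROD4, which are also expressed in the retina, spread widely in scn1lab WT, at 83.6 to 287 CPM and 5.77 to 28.3 CPM. The part of neuronal and retinal RNA in these values was not tested.

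Neural progenitor and radial glia genes mark the cells in which her genes are known to act. Of 15 progenitor IDs tested, 0 passed by edgeR in either HOM against WT comparison, with 2 and 5 at an unadjusted p under 0.05 (13.3% and 33.3%, beside 18.9% and 7.80% of all genes) and medians of -0.50 in scn1lab and 0.11 in dyrk1a. In dyrk1a HOM, the replication factors PCNA and MCM2 were at 1.01 (SE 0.25) and 1.63 (SE 0.41), with edgeR adjusted p of 0.449 each. DESeq2 called both, with adjusted p of 0.0279 and 0.0149. MCM5 was at 1.35 (SE 0.39, edgeR adjusted p = 0.492). Of the 15 IDs, 6 were below 0 in dyrk1a HOM; chosen after their values were seen, the progenitor transcription factor genes SOX2, at 39.4 CPM against 66.9 CPM (-0.76, SE 0.30, edgeR adjusted p = 0.579), and SOX1 (ENSDARG00000008131), at 17.2 to 25.5 CPM against 26.6 to 28.3 CPM, are examples. In scn1lab HOM against WT, PAX6 (ENSDARG00000045936) was at -2.54 (SE 0.97) and MSI1 at -0.84 (SE 0.36), with edgeR adjusted p of 0.223 and 0.252. PAX6, which is also a retinal gene, ran from 11.4 to 96.1 CPM in scn1lab WT, beside the retinal shares given above. In the same list PCNA was higher in scn1lab HOM than WT without overlap, at 110.0 to 139.9 CPM against 77.9 to 101 CPM (0.49, SE 0.25, edgeR adjusted p = 0.31), also named after its values were seen. The share of all genes higher without overlap there was 18.3%.

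Of 15 radial glia IDs tested, 0 passed by edgeR, with 3 and 4 at an unadjusted p under 0.05 in scn1lab and dyrk1a HOM (20.0% and 26.7%, beside 18.9% and 7.80% of all genes). In scn1lab HOM, GLUL (ENSDARG00000099776), a glutamine synthetase, was at -1.16 (SE 0.30, edgeR adjusted p = 0.158) and the glutamate transporter SLC1A2 (ENSDARG00000102453) at -1.81 (SE 0.47, adjusted p = 0.16). Of the 15 IDs, 9 were below 0 in scn1lab HOM against WT and the others were not. Chosen after their values were seen, the other GLUL ID, at 888 CPM against 821 CPM, and GFAP, at 27.4 CPM against 20.4 CPM, are examples of the others. In dyrk1a HOM, the intermediate filament gene VIM had 2 IDs on opposite sides of 0: ENSDARG00000010008 was at 182 CPM against 281 CPM (-0.62, SE 0.13, edgeR adjusted p = 0.449; DESeq2 adjusted p = 8.3e-04), and ENSDARG00000044501 at 3.45 to 6.11 CPM against 2.44 to 3.42 CPM (0.79, SE 0.40, edgeR adjusted p = 0.67). In the same comparison the fatty acid binding protein gene FABP7 (ENSDARG00000007697) was at 0.57 (SE 0.16, edgeR adjusted p = 0.456). The radial glia medians were -0.26 and -0.01, beside -0.17 and 0.49 for the 8 her genes.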

How the data were processed

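Per the submitters' processing notes, Trim Galore 0.5.0, HISAT2 2.1.0, StringTie 1.3.3b, DESeq2 1.22.1 and GRCz11 were used, with no role stated. The deposited values are raw counts per gene ID in 19 libraries, with a supplied symbol for 28975 of 32020 IDs. Genes were filtered with filterByExpr (minimum count 10), scaled by TMM, and edgeR 4.0.16 under R 4.3.3 tested them with robust quasi-likelihood F tests, 2-sided, in 1 fit per line and 1 fit of all libraries for the line difference, at a Benjamini-Hochberg adjusted p under 0.05. Unless another setting is named, edgeR values and calls come from these fits. SE is the log2 change over the square root of F. The procedure was tested on simulated data. The her names and gene lists were chosen with earlier results of these data known.

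Of 239 list names, 158 matched a symbol, 52 after removal of the paralog letter, 3 by a RefSeq synonym and 26 none; the paralog letter was tried before synonyms, the reverse of the first plan, because synonyms gave wrong genes. Named were all her IDs, the receptors, the Delta and Jagged ligands and the RBPJ IDs, up to 3 genes of smallest p per other list, and the 6 genes most like the her mean by log2(CPM + 1). her4.5, HES1, HES4 and the genes so marked were added after their values were seen. The labels name extraction kits without assigning them to libraries, so these were not used. Replicates are separate heads, so p-values set a difference against the spread between these heads, which includes their uneven tissue makeup. The proneural genes named for scn1lab are also given for dyrk1a, and some single-gene results of that list are not reported here. No sequence is shown.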

Additional observations from a re-analysis of the deposited data

Results flagged for a closer look

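In the dyrk1a HOM group, the only group of 4, 33 quantities were checked for 1 library standing apart (Dixon's ratio above 0.829), and chance flags about 1 in 20. HES1 was at 34.4 CPM in HOM5 and 18.5 to 20.7 CPM in the other 3 libraries, a gap of 0.862 of the range. The lens list took 0.00219% of counts in HOM1 and 0.000355 to 0.000506% in the others, a gap of 0.918 of the range. None of the 8 her genes met this rule.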

How the results depend on the processing

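Of 1098 values of the 8 her genes under other settings, 1051 stayed within the spread between replicates, and 115, over 37 of the 56 differences, had the other sign. The 1098 include fits without a library of a group outside the comparison, which leave the compared libraries as they were. The spread is wide for her4.3: in scn1lab HOM against WT, 1.31 in place of -0.26 counted as within it. The 1051 is therefore not a measure of stability. Of differences whose groups did not overlap, 1 changed sign: with the her4 copies summed, the value that stands for her4.2 in dyrk1a HET against WT went from 0.44 to -0.03. The count of all genes called depended on the tool and, for edgeR, on which groups were fitted. DESeq2 gave 1530, 298 and 64 genes for scn1lab HOM against WT, HET against WT and HOM against HET, 158, 32 and 155 for dyrk1a, and 279 for the line difference, against 1, 0, 1, 0, 0, 0 and 6 with edgeR. Fitting only the groups compared gave 2077 of 20684 genes in scn1lab HOM against WT and 0 in HOM against HET. It gave 46 for the line difference. Of the Notch pathway it called 4 of 44 in scn1lab HOM against WT (notch2, PSEN2 and NUMB higher, DTX4 lower). DESeq2 called 1 of 45 there, beside 1530 of 20493 genes (7.47%). Neither Notch count exceeds the share of all genes called in its fit, so nothing is read from these counts. Without a filter on low counts, 4 and 1 genes passed in scn1lab HOM and HET against WT. With library totals, chosen after seeing the data, it was 2 and 1, and 12 for the line difference. The digestive share as a covariate gave 0 in scn1lab HOM against WT and 1 each in dyrk1a HET against WT and HOM against HET. Without the high digestive libraries, 0 passed in scn1lab HOM against WT and against HET. The cause of these differences was not tested.

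The replicate block gave 2 genes in scn1lab HOM against WT. Same-numbered libraries had correlations of -0.30 to 0.15 in scn1lab (1 of 9 pairs over 0.1) and -0.14 to 0.23 in dyrk1a (3 of 6), so the numbers were not taken to pair libraries. Leaving out 1 library gave 0 to 171 genes in scn1lab HOM against WT (171 without HET1), 0 to 0 in HET against WT, 0 to 3 in HOM against HET (3 without HET3), 0 to 3, 0 to 3 and 0 to 1 in dyrk1a, and 3 to 67 for the line difference, and 0 to 0 Notch pathway genes in every comparison. For the other pathway and marker genes, 17241 values under other settings kept their side of the threshold, 99 came to pass it and 18 no longer did. Groups of 3 or 4 heads, uneven tissue makeup and shared reads between her4 and her15 copies limit every single-gene value here.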
